A study of Gallus gallus with 30 samples.

Results

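Solute carrier (SLC) genes were followed through chicken development from the freshly laid egg to a feathered embryo. They were chosen by name: every gene on the array whose symbol is SLC, a number, a letter and a number, apart from 5 symbols that the rule leaves out. This gave 266 genes of 47 families, among 13008 genes with 1 symbol on the array, measured by 614 of 37693 chicken probe sets. Each gene was represented by its probe set with the highest mean log2 signal, chosen without regard to stage. Signals of different probe sets are not on a common scale, so levels are compared between stages of 1 gene and never between genes.

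The embryos were wild-type birds of the Nera line, of mixed sex, from eggs incubated at 37.5 °C, and by the labels the groups differ only in their Hamburger-Hamilton (HH) stage. The 15 stages were the blastoderm (HH1 and HH2), the primitive streak (HH4), the head fold and first somites (HH6, HH8 and HH9), the turning embryo (HH11, HH14 and HH16), limb and organ growth (HH19, HH24, HH27, HH32 and HH34) and a feathered embryo (HH38). Each stage has 2 arrays of separate pools, each pool being total RNA of several whole embryos with yolk and amnion taken away, so an array averages over embryos and over all their tissues. In such material fewer cells of a type and less RNA per cell cannot be told apart.

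SLC proteins are membrane transporters that move nutrients, ions, metals, vitamins and metabolites across the plasma membrane and the membranes of mitochondria, the Golgi, endosomes and synaptic vesicles. Most work as coupled carriers, which spend the sodium, proton or potassium gradient, or as facilitators and exchangers. In the bird embryo the outer endoderm takes up yolk and passes sugars, amino acids, lipids and metals on to the embryo before gut and liver take over, and those organs later use many of the same carriers.

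A probe set was called above background on an array when its signal passed the 95th percentile of 689 probe sets for other organisms on that array, which lay between 25.4 and 47.2. Between 197 and 236 of the 266 SLC genes (74.1% to 88.7%) passed it on an array, against 82.2% to 89.1% of all genes with 1 symbol, 148 passed it on all 30 arrays and 4 on none. The filter on low signals kept 250 SLC genes for testing, and the 16 left out were SLC5A7, SLC5A9, SLC7A11, SLC9A2, SLC10A2, SLC13A4, SLC17A6, SLC17A8, SLC22A13, SLC22A18, SLC25A47, SLC26A2, SLC26A7, SLC30A8, SLC35B1 and SLC35D3. Replicate arrays correlated at r of 0.916 to 0.958 over the SLC genes within a stage. The HH38 arrays stood apart: their actin 3′ to 5′ signal ratios were 2.48 and 2.99, against at most 2.01 on the other arrays. In addition the W-linked genes HINTW and HNRNPKL, carried by females alone, averaged 10.4 and 24.4 at HH38, not well above background, against 17630 and 1599 at HH34, which goes against the mixed-sex label of that stage. The HH38 counts over all SLC genes are therefore given beside those at HH34, and HH34 values are given for many single genes. Counts for lists of genes by role were made for HH38 alone.

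Of the 250 SLC genes tested, 186 (74.4%) differed between the 15 stages (limma's moderated F test, adjusted p under 0.05 over all probe sets kept), against 82.1% of all genes. Their highest stage means fell into an early, a middle and a late block. HH1 and HH2 held the highest mean of 59 of the 186 (31.7%, against 32.7% of all genes with a stage effect), HH4 to HH9 of 54 (29%, against 16.2%), HH11 to HH24 of 19 (10.2%, against 16.1%) and HH27 to HH38 of 54 (29%, against 35%). The excess over all genes lay at HH6, HH8 and HH9, where 12, 16 and 18 SLC genes had their highest mean, 24.7% of the 186 against 12.1% of all genes. With any other normalization, filter or left-out array tried, the HH4 to HH9 share stayed between 27.2% and 31.1%. These shares are counts over genes and carry no test.

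**Figure D1:**
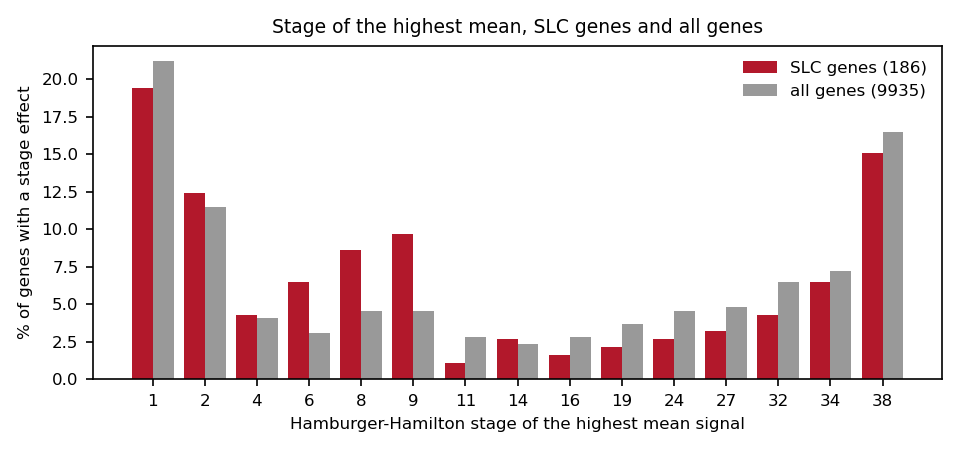
Percentage of genes with a stage effect (vertical axis) by the stage of their highest mean signal (horizontal axis), for 186 SLC genes (red, left) and 9935 genes in all (grey, right). SLC genes have larger shares than all genes at HH6, HH8 and HH9, and smaller ones at each stage from HH16 to HH38.

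**Figure D2:**
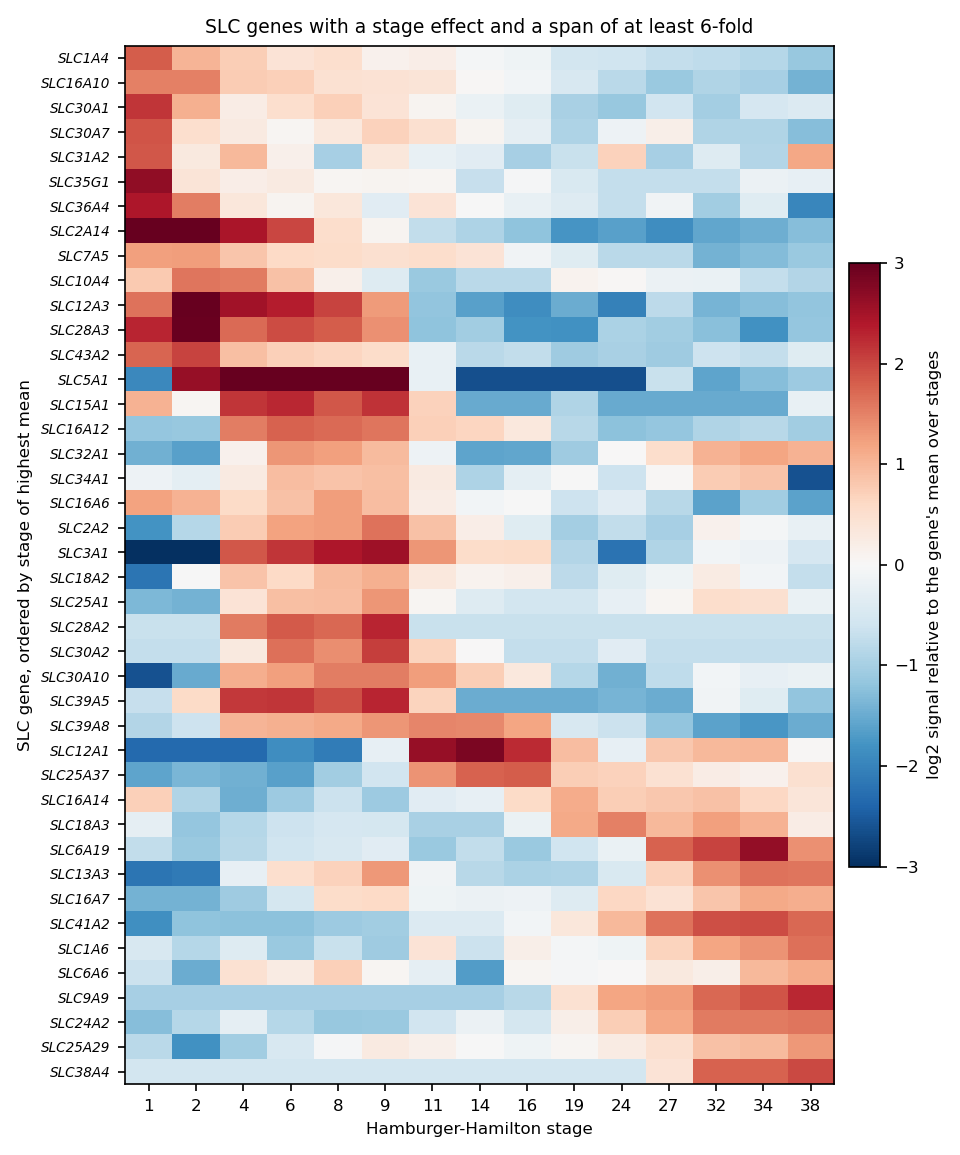
Stage means of the 42 SLC genes with a stage effect and a span of at least 6-fold, as log2 signal relative to each gene's own mean over stages (red higher, blue lower, limits at 3, signals under 30 set to 30). Rows are ordered by the stage of the highest mean and show an early block at HH1 and HH2, a block from HH4 to HH9, a few genes at HH11 to HH24 and a late block from HH27.

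In the earlier of the 2 main contrasts, HH16 set against HH1, 25 SLC genes rose (10% of those tested, against 16.7% of all genes) and 37 fell (14.8%, against 10.5%), where a call needed an adjusted p under 0.05 and at least a 2-fold change. The median log2 change was -0.093 over SLC genes and 0.059 over all genes. In the later one, HH38 set against HH16, 24 rose (9.6%, against 14.5%) and 19 fell (7.6%, against 8.92%), with medians of 0.122 and 0.012. This split turned with the scaling of the arrays: 20 rose and 26 fell with a common 75th percentile, and 15 rose and 28 fell with quantile normalization. The median of all genes moved by -0.166 and -0.121 under those scalings, and the SLC median stayed 0.11 and 0.065 above it. The 19 falls became 12 without HH16 replicate 2. HH34 set against HH16 called 37 SLC genes (14.8%, against 17.2% of all genes), 26 higher and 11 lower. Of the 24 rises at HH38 16 were also called higher at HH34, and of the 19 falls 7 were also called lower and 1 (SLC34A1) was called higher; these contrasts share the HH16 arrays. This overlap was not counted over all genes, so it does not show that SLC genes differ from other genes in it.

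**Figure D3:**
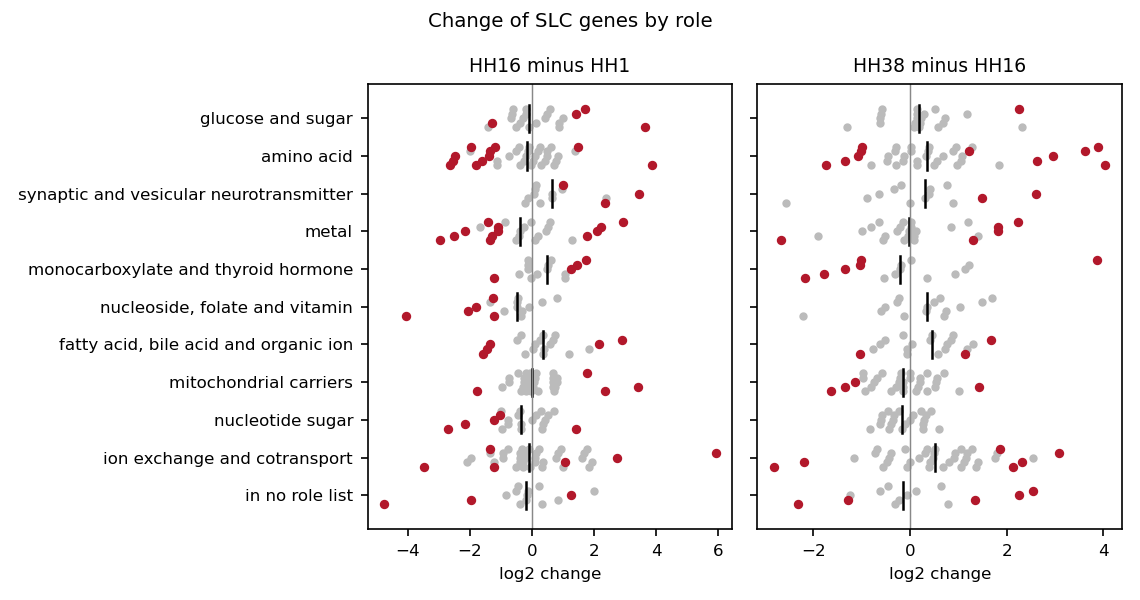
Log2 change of each tested SLC gene (points) by role list, HH16 minus HH1 on the left and HH38 minus HH16 on the right. Red points passed the test, grey points did not, and black bars mark list medians. The vitamin and nucleoside list has 5 falls and no rise at HH16. The monocarboxylate and thyroid hormone list has 5 falls and 1 rise at HH38. Of these, 1 fall and 1 rise were called with the mean of probe sets.

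Among the 14 steps between neighbouring stages, 4 held most of the calls. HH2 set against HH1 had 14 SLC genes higher (5.6% of those tested, against 6.01% of all genes) and 16 lower (6.4%, against 4.73%). HH4 against HH2 had 21 higher (8.4%, against 7.61%) and 7 lower (2.8%, against 2.04%), and HH11 against HH9 had 4 higher (1.6%, against 2.78%) and 13 lower (5.2%, against 3.46%). HH38 against HH34 had 4 higher (1.6%, against 2.93%) and 3 lower (1.2%, against 1.42%). Single arrays carried part of these counts: without HH9 replicate 1 the HH11 step had 2 higher and 7 lower, without HH11 replicate 1 it had 1 higher, without HH11 replicate 2 it had 2 higher, without HH4 replicate 2 the HH4 step had 4 lower, and without HH34 replicate 1 the last step had 2 higher. The other 10 steps summed to 19 calls, with 30 when HH24 replicate 2 was left out. The step to HH19 had 7 (2.8% of those tested, against 1.03% of all genes) and that to HH27 had 3 (1.2%, against 1.22%). Those to HH8, HH14 and HH24 had 2 each (0.8%, against 0.24%, 0.678% and 0.925% of all genes). The steps to HH6, HH32 and HH34 had 1 each (0.4%, against 0.438%, 1.33% and 0.0661% of all genes). None was called by limma to HH9 (0, against 0.264%) or HH16 (0, against 0.107%). These last steps had 29 and 21 SLC genes at an unadjusted p under 0.05. In all, 71 SLC genes (28.4%) were called in at least 1 step, against 25% of all genes.

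Sugar carriers had their highs at different stages. SLC2A14, which the RefSeq table also lists as SLC2A3 and GLUT3, a high-affinity glucose facilitator, gave 297 and 257 at HH16, against 7220 and 7714 at HH1 (log2 change -4.76 ± 0.244, adjusted p = 2.78e-13). Its stage means ran 7463, 8718, 3454, 2537, 917, 670 and 383 from HH1 to HH11 and stayed under 400 thereafter, so most of the fall lay between HH2 and HH8. The step to HH4 (log2 change -1.34 ± 0.244, adjusted p = 0.000301) and the step to HH8 (log2 change -1.47 ± 0.244, adjusted p = 0.00869) both passed the test. The SLC2A14 call for HH8 against HH6 ended without HH6 replicate 1 (adjusted p = 0.137), and with the mean of its probe sets (adjusted p = 0.0884).

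SLC2A1 (GLUT1), the widespread basal glucose facilitator, took the opposite first step. It gave 12690 and 13800 at HH2, against 5171 and 6131 at HH1 (log2 change 1.23 ± 0.173, adjusted p = 9.21e-06). Its stage means were 13230, 12700, 12140, 10780, 8440 and 4441 from HH2 to HH11, and after HH11 they stayed between 2458 (HH38) and 6559 (HH27). The HH16 and HH1 means, 3724 and 5631, did not differ by the 2-fold needed (log2 change -0.60 ± 0.173, adjusted p = 0.00717).

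SLC5A1 (SGLT1), which draws glucose into absorptive cells with sodium, was high from HH2 to HH9. It gave 1117 and 1159 at HH2, against 28.2 and 86.2 at HH1 (log2 change 4.53 ± 0.793, adjusted p = 0.000127, with 1 of 2 HH1 arrays above background). Its means were 3088, 2777, 2390, 1642, 159.6 and 25.6 at HH4, HH6, HH8, HH9, HH11 and HH14, and at HH11 the arrays gave 166 and 153, against 2002 and 1347 at HH9 (log2 change -3.36 ± 0.793, adjusted p = 0.00589). The SLC5A1 call for HH11 against HH9 ended without HH9 replicate 1 (adjusted p = 0.0643). Its other 2 probe sets showed the same rise and fall, with means of 1737 and 404 at HH4, against 618 and 181 at HH2. At HH38 SLC5A1 gave 73.9 and 106, against 7.36 and 46.0 at HH16 (log2 change 2.26 ± 0.793, adjusted p = 0.0266, with 1 of 2 HH16 arrays above background; HH34 arrays 108 and 55.8). The SLC5A1 call for HH38 against HH16 ended without HH16 replicate 1 (adjusted p = 0.465), HH38 replicate 1 (adjusted p = 0.0574) or HH38 replicate 2 (adjusted p = 0.137), and with the mean of its probe sets (adjusted p = 0.323), quantile normalization (adjusted p = 0.0622) or no variance trend (adjusted p = 0.0569).

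SLC2A2 (GLUT2), the facilitator of liver, gut and kidney, rose to 167 and 262 at HH4, against 89.9 and 51.6 at HH2 (log2 change 1.62 ± 0.347, adjusted p = 0.00151). Its mean went on to 379 at HH9 and was 226, 142 and 95.6 at HH11, HH14 and HH16. SLC37A4, which brings glucose 6-phosphate into the endoplasmic reticulum for glucose release, had means of 169, 321, 418, 504, 529.9, 631 and 325 from HH1 to HH11, with a stage effect (adjusted p = 7.59e-08) and no call at HH2, HH4 or HH11. SLC2A2, SLC37A4 and SLC5A1 thus shared a high between HH4 and HH9.

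The inositol carrier SLC2A13 was lowest at HH1 and highest at HH38. It gave 1027 and 1051 at HH16, against 284 and 367 at HH1 (log2 change 1.69 ± 0.135, adjusted p = 5.04e-10), and 1674 on average at HH38. SLC2A12 (GLUT12) gave 129 and 140.4 at HH16, against 25.1 and 4.64 at HH1 (at least 4.38-fold, adjusted p = 0.001, with both HH1 arrays not well above background). SLC2A8, a facilitator of inner membranes, was bright on all arrays and lay between 943 (HH2) and 2543 (HH34). Of 21 tested genes in the sugar list, 12 had a stage effect (57.1%, against 82.1% of all genes) and 3 rose and 1 fell at HH16 against HH1 (14.3% and 4.76%, against 16.7% and 10.5% of all genes), a list median of -0.10 against 0.06 over all genes. At HH38 against HH16 1 rose (SLC5A1) and 0 fell by limma (4 and 2 at an unadjusted p under 0.05), and with the mean of probe sets SLC2A5, a fructose facilitator, rose and SLC5A1 was not called. SLC2A14 is not in that list.

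SLC3A1, SLC16A12, SLC30A10 and SLC15A1 were among the 21 SLC genes that rose at HH4. SLC3A1 (rBAT), the heavy subunit of the cystine and basic amino acid exchanger of gut and kidney, gave 1197 and 1158 at HH4, against 22.1 and 28.4 at HH2 (at least 41.3-fold, adjusted p = 2.83e-14, with both HH2 arrays not well above background). Its means were 1423, 1740, 1874, 805, 469, 482, 175 and 69.6 from HH6 to HH24, and it averaged 303 at HH32 and gave 277 and 188 at HH38 (for HH38 against HH16 log2 change -1.08 ± 0.222, adjusted p = 0.000398; HH34 arrays 305 and 278). The SLC3A1 call for HH38 against HH16 ended without HH38 replicate 2 (log2 change -0.80). The falls at HH11 (log2 change -1.22 ± 0.222, adjusted p = 0.000548), HH19 (log2 change -1.46 ± 0.222, adjusted p = 0.000455) and HH24 (log2 change -1.33 ± 0.222, adjusted p = 0.00186) and the rise at HH27 (log2 change 1.30 ± 0.222, adjusted p = 0.00177) passed the test. The SLC3A1 call for HH27 against HH24 ended without HH24 replicate 1 (adjusted p = 0.0608).

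SLC16A12, a monocarboxylate-family carrier that transports creatine, gave 1896 and 1916 at HH4, against 311 and 288 at HH2 (log2 change 2.67 ± 0.152, adjusted p = 1e-11), and its other 2 probe sets rose at that step as well. SLC30A10, a manganese exporter, gave 430.3 and 448 at HH4, against 71.8 and 72.9 at HH2 (log2 change 2.60 ± 0.286, adjusted p = 4.13e-07). SLC15A1 (PEPT1), the small-peptide carrier of the gut brush border, gave 439 and 328 at HH4, against 126 and 64.1 at HH2 (log2 change 2.08 ± 0.66, adjusted p = 0.0288). The SLC15A1 call for HH4 against HH2 ended without HH2 replicate 2 (adjusted p = 0.227), HH4 replicate 1 (adjusted p = 0.161) or HH4 replicate 2 (adjusted p = 0.0742), and with quantile normalization (adjusted p = 0.0573). In SLC16A12, SLC30A10 and SLC15A1 the HH4 and HH2 arrays did not overlap.

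SLC28A2, a sodium-coupled purine nucleoside carrier, was above background from HH4 to HH9 and not well above it on any other array. It gave 118 and 169 at HH4, against 16.0 and 4.51 at HH2 (at least 4.96-fold, adjusted p = 0.00335, with both HH2 arrays not well above background). The SLC28A2 call for HH4 against HH2 ended without HH2 replicate 2 (adjusted p = 0.0673). At HH11 it gave 29.2 and 31.5, against 238 and 226 at HH9 (at least 6.99-fold, adjusted p = 0.046, with both HH11 arrays not well above background). The SLC28A2 call for HH11 against HH9 ended without any 1 of 12 arrays (adjusted p up to 0.183), and with array weights (adjusted p = 0.0729), quantile normalization (adjusted p = 0.0567) or the replicate block (adjusted p = 0.0509). Only 8 of its 30 arrays were above background, the 8 of HH4 to HH9.

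SLC13A3 carries dicarboxylates such as succinate with sodium in kidney and liver. It gave 467 and 432 at HH4, against 136 and 111 at HH2 (log2 change 1.87 ± 0.198, adjusted p = 2.38e-07), reached 1312 at HH9 and was back at 543 and 451 at HH11 (log2 change -1.41 ± 0.198, adjusted p = 2.91e-05). A second rise followed, described with the late genes. SLC25A1, the mitochondrial citrate carrier that feeds fatty acid synthesis, gave 2057 and 2204 at HH4, against 543 and 659 at HH2 (log2 change 1.83 ± 0.124, adjusted p = 1.63e-10), and 1736 and 1609 at HH11, against 3722 and 4258 at HH9 (log2 change -1.25 ± 0.124, adjusted p = 2.54e-07). SLC22A5 (OCTN2), the carnitine carrier, rose to 9951 and 11000 at HH4, against 3527 and 3469 at HH2 (log2 change 1.58 ± 0.1, adjusted p = 6.14e-11), and stayed at or above 6051 from then on.

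SLC32A1, which loads GABA and glycine into synaptic vesicles, also had its highest mean in this window, at HH6. It gave 399.7 and 378 at HH4, against 128 and 104 at HH2 (log2 change 1.76 ± 0.206, adjusted p = 1.03e-06), and 797 and 977 at HH6 (log2 change 1.18 ± 0.206, adjusted p = 0.00722). The SLC32A1 call for HH6 against HH4 ended without HH4 replicate 2 (adjusted p = 0.0575) or HH6 replicate 2 (adjusted p = 0.128). It then fell at HH11 (log2 change -1.11 ± 0.206, adjusted p = 0.000675) and HH14 (log2 change -1.42 ± 0.206, adjusted p = 0.000592). The SLC32A1 call for HH11 against HH9 ended without HH11 replicate 1 (log2 change -0.99) or HH9 replicate 1 (log2 change -0.80). A second probe set for SLC32A1 was not kept by the filter and stayed at or under 10.1 at every stage.

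Genes that rose at HH4 and fell at HH11 were counted, since these steps share no array. Of the 21 SLC genes higher at HH4 than at HH2, 5 were also among the 13 lower at HH11 than at HH9: SLC25A1, SLC13A3, SLC32A1, SLC28A2 and SLC3A1. That is 23.8% of the first list and 38.5% of the second, against 21.4% and 47% for all genes. Other SLC genes with high means from HH4 to HH9 were SLC39A5, a zinc importer (414 at HH9, against 27.2 at HH14), SLC5A11, an inositol carrier (58.4 at HH11, against 249 at HH9, log2 change -2.09 ± 0.442, adjusted p = 0.0023) and SLC23A1, a vitamin C carrier (42.2 at HH11, against 167 at HH9, log2 change -1.99 ± 0.561, adjusted p = 0.0211, with 1 of 2 HH11 arrays above background). The SLC23A1 call for HH11 against HH9 ended without HH11 replicate 2 (adjusted p = 0.223), HH9 replicate 1 (adjusted p = 0.057) or HH9 replicate 2 (adjusted p = 0.124). The SLC5A11 call for HH11 against HH9 ended with the mean of its probe sets (adjusted p = 0.0993).

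Markers of yolk-absorbing endoderm moved the same way at the steps to HH4 and HH11. All 6 markers listed for that tissue were measured, and their summed signal was 70590 and 72390 at HH4, against 10300 and 11230 at HH2, and 55660 and 55500 at HH11, against 98390 and 97680 at HH9. CUBN and LRP2, the scavenger receptors of absorptive endoderm and kidney, averaged 3651 and 2687 at HH4, against 203 and 680 at HH2. RBP4 was not well above background on any array before HH24. The sum of the 6 markers rose again later, to 36650 and 34250 at HH32, against 4971 and 5345 at HH19. Of the genes described above, SLC13A3 and SLC32A1 also climbed again after HH19. SLC5A1 and SLC16A12 stayed far below their HH4 signals at HH34. The 4 gut markers summed to 1550 and 1514 at HH4, against 338 and 378 at HH2, and 5 of 6 liver markers were measured and summed to 13710 and 13650, against 370 and 290. The liver sum was mostly FGB, at 12370 on average at HH4, while ALB averaged 81.6, against 50.2 at HH2. These lists were made for organs, and their sums at HH4 do not show that gut or liver was present. The part of cells with these markers in the SLC changes was not tested.

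**Figure D4:**
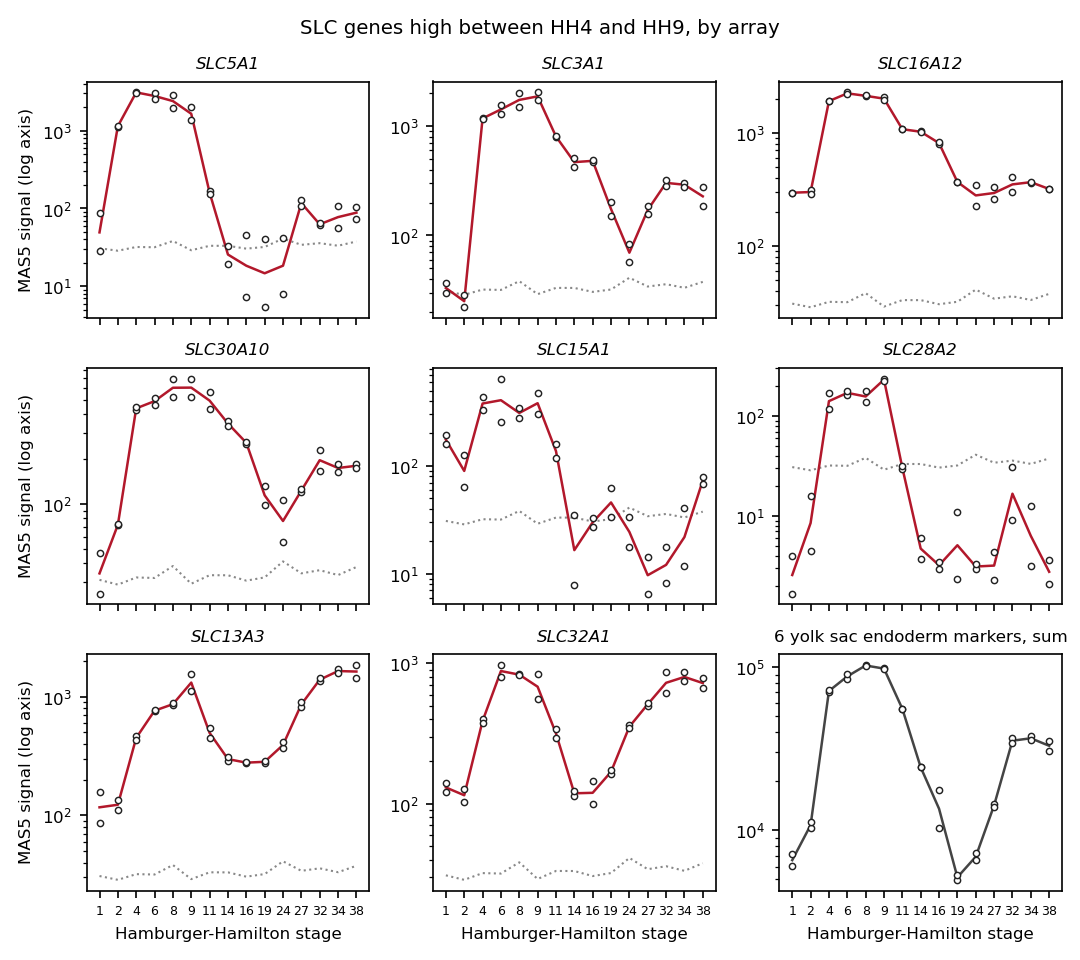
Signal on each array (open points) and stage mean (line) of 8 SLC genes high between HH4 and HH9, on log axes with the background as a dotted line, and the summed signal of 6 yolk sac endoderm markers in the last panel. All 8 genes are higher at HH4 than at HH2 on both arrays, SLC28A2 is above background only from HH4 to HH9, and SLC13A3 and SLC32A1 climb again after HH19.

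In the amino acid list, 26 of 36 tested genes had a stage effect (72.2%, against 82.1% of all genes). At HH16 against HH1 2 rose and 9 fell (5.56% and 25%, against 16.7% and 10.5% of all genes, median -0.16), or 1 and 7 with the mean of probe sets. One of the falls, SLC6A19, was not above background on both arrays at HH1, its brighter stage. That SLC6A19 call ended without any 1 of 17 arrays. At HH38 against HH16 6 rose and 5 fell (16.7% and 13.9%, against 14.5% and 8.92% of all genes, median 0.36), or 3 and 5 with quantile normalization. Among the rises, SLC6A8 and SLC7A14 were not above background on both arrays at HH38, their brighter stage. The SLC6A8 call ended without any 1 of 3 arrays and the SLC7A14 call without any 1 of 4. SLC1A4 (ASCT1), an exchanger of alanine, serine and cysteine, gave 1305 and 1424 at HH16, against 5529 and 4998 at HH1 (log2 change -1.95 ± 0.124, adjusted p = 1.05e-11). Its mean at HH38 was 678 (log2 change -1.01 ± 0.124, adjusted p = 5.74e-07; HH34 arrays 831 and 839.6). The SLC1A4 call for HH38 against HH16 ended without HH16 replicate 2 (log2 change -0.94) or HH38 replicate 2 (log2 change -0.86), and with the mean of its probe sets (log2 change -0.79).

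SLC16A10 (TAT1), which lets aromatic amino acids through, gave 1701 and 1772 at HH16, against 4883 and 5688 at HH1 (log2 change -1.60 ± 0.115, adjusted p = 8.48e-11), and 646 and 720.5 at HH38 (log2 change -1.35 ± 0.115, adjusted p = 2.07e-09; HH34 arrays 953 and 891). SLC7A5 (LAT1), the exchanger of large neutral amino acids, gave 925 and 1075 at HH16, against 2630 and 2454 at HH1 (log2 change -1.35 ± 0.121, adjusted p = 3.3e-09). SLC7A6, its relative for basic amino acids, gave 1396 and 1294, against 3236 and 2911 (log2 change -1.19 ± 0.0989, adjusted p = 9.32e-10). In each of these the arrays of the 2 stages lay well apart.

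SLC36A4, a high-affinity carrier of proline and tryptophan, gave 154 and 106 at HH16, against 738 and 855 at HH1 (log2 change -2.64 ± 0.356, adjusted p = 1.78e-06), with most of the loss by HH4 (189, against 432 at HH2). SLC43A2 (LAT4), a facilitator of large neutral amino acids, gave 267 and 258 at HH16, against 1337 and 1626 at HH1 (log2 change -2.49 ± 0.199, adjusted p = 4.91e-10). SLC15A1 was lower at HH16 (27.3 and 32.9) than at HH1 (192 and 159.9), despite its high in between (log2 change -2.55 ± 0.66, adjusted p = 0.00294, with 1 of 2 HH16 arrays above background). SLC7A3, a basic amino acid carrier, stood at 3982 at HH2, against 2028 at HH1, just short of 2-fold (log2 change 0.97 ± 0.119, adjusted p = 1.52e-06).

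SLC genes that fell in both main contrasts numbered 5: SLC16A10, SLC16A6, SLC1A4, SLC36A4 and SLC7A5. They were 2% of those tested, against 0.876% of all genes, and all but SLC16A6, an exporter of ketone bodies and taurine, carry amino acids. The 2 contrasts share the HH16 arrays. At HH34 against HH16, SLC7A5 and SLC16A6 were also called lower, while SLC16A10, SLC1A4 and SLC36A4 were not called. There the SLC16A6 call ended without any 1 of 4 arrays, and the SLC7A5 call with the mean of its probe sets. SLC36A4 was called lower at HH38 against HH34, and that call ended without any 1 of 2 arrays. The SLC7A5 call for HH38 against HH16 ended without HH16 replicate 2 (log2 change -0.89) or HH38 replicate 1 (log2 change -0.92), and with the mean of its probe sets (adjusted p = 0.137). The SLC16A6 call for HH16 against HH1 ended without HH1 replicate 1 (adjusted p = 0.0561) or HH16 replicate 1 (adjusted p = 0.103), and with the mean of its probe sets (adjusted p = 0.169).

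Other amino acid carriers came on late. SLC38A4, a sodium-coupled carrier of small neutral amino acids known from liver, gave 162 and 183 at HH38, against 3.6 and 30.3 at HH16 (log2 change 4.04 ± 1.51, adjusted p = 0.0378, with 1 of 2 HH16 arrays above background), and 170.3 and 132 at HH34. The SLC38A4 call for HH38 against HH16 ended without HH16 replicate 1 (adjusted p = 0.332), HH38 replicate 1 (adjusted p = 0.11) or HH38 replicate 2 (adjusted p = 0.128), and with quantile normalization (adjusted p = 0.0658) or no variance trend (adjusted p = 0.0535). SLC6A19, the neutral amino acid carrier of the gut and kidney brush border, gave 419.8 and 379.6 at HH34, against 21.2 and 5.97 at HH16 (at least 13.1-fold, adjusted p = 4.03e-06, with both HH16 arrays not well above background), and 176 and 158 at HH38 (at least 5.48-fold, adjusted p = 0.000102, with both HH16 arrays not well above background). SLC38A2, a widespread carrier induced when amino acids are short, gave 2646 and 2834 at HH38, against 1219 and 1147 at HH16 (log2 change 1.21 ± 0.116, adjusted p = 1.24e-08; HH34 arrays 2077 and 2142).

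The 5 liver markers measured summed to 58300 and 71530 at HH38 and 42220 and 38910 at HH34, against 1820 and 2253 at HH16, with ALB at 44510, 26750 and 89.2 on average. The 4 gut markers summed to 502 and 929 at HH38 and 763 and 644 at HH34, against 246 and 231 at HH16. They did not move together. FABP2 averaged 442, 543 and 4.33 at HH38, HH34 and HH16, and CDX1 fell, with 47.9, 32.5 and 144.5. VIL1 averaged 58.3, 35.5 and 13.1, and CDH17 132, 73.0 and 58.0. The part of cells with the liver or gut markers in the late rise of SLC38A4 and SLC6A19 was not tested. SLC38A1, a neutral amino acid carrier of growing cells and neurons, stayed between 5732 (HH1) and 9069 (HH24).

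In the metal list, 21 of 25 tested genes had a stage effect (84%, against 82.1% of all genes). At HH16 against HH1 4 rose and 8 fell (16% and 32%, against 16.7% and 10.5% of all genes, median -0.38), so that the share of rises was close to that of all genes. One of the rises, SLC39A12, was not above background on both arrays at HH16, its brighter stage. That SLC39A12 call ended without any 1 of 2 arrays. At HH38 against HH16 4 rose and 1 fell (16% and 4%, against 14.5% and 8.92% of all genes, median -0.03), or 3 and 3 with quantile normalization. SLC30A1 (ZnT1), the zinc exporter of the plasma membrane, gave 437 and 341 at HH16, against 2269 and 2106 at HH1 (log2 change -2.50 ± 0.194, adjusted p = 2.97e-10), and had already fallen at HH2 to 1104 and 982 (log2 change -1.07 ± 0.194, adjusted p = 0.000188). SLC30A7, a zinc carrier of the Golgi, gave 74.8 and 79.6, against 338 and 346 (log2 change -2.15 ± 0.394, adjusted p = 9.24e-05). The SLC30A1 call for HH2 against HH1 ended without HH2 replicate 2 (log2 change -0.99), and with the mean of its probe sets (log2 change -0.77) or quantile normalization (log2 change -0.99).

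The SLC30 family had 4 falls and 1 rise at HH16, the rise being SLC30A10. SLC30A10 gave 254 and 261 at HH16, against 25.0 and 46.6 at HH1 (log2 change 2.92 ± 0.286, adjusted p = 1.39e-08, with 1 of 2 HH1 arrays above background), after its high at HH8 and HH9 (604 and 605). SLC31A1 (CTR1), the copper importer, gave 1879 and 1843 at HH16, against 4128 and 5068 at HH1 (log2 change -1.30 ± 0.104, adjusted p = 4.89e-10), and its means dropped between HH9 and HH14 (4779, 2723 and 1951). SLC39A6 and SLC39A11, zinc importers of the ZIP family, fell too (log2 change -1.43 ± 0.283, adjusted p = 0.000216 for SLC39A6 and log2 change -1.36 ± 0.083, adjusted p = 5.18e-12 for SLC39A11).

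SLC39A8 (ZIP8), which imports zinc and manganese, had a plateau of its own that outlasted the HH4 to HH9 group. It gave 1732 and 1572 at HH4, against 535 and 521 at HH2 (log2 change 1.64 ± 0.122, adjusted p = 7.39e-10), and its means were 1684, 1769, 2018, 2225, 2192 and 1846 from HH6 to HH16. At HH19 it gave 574 and 586, against 1715 and 1985 at HH16 (log2 change -1.67 ± 0.122, adjusted p = 3.3e-08). At HH38 it stood at 280.4 and 298 (log2 change -2.67 ± 0.122, adjusted p = 9.69e-14; HH34 arrays 258 and 228). All 3 probe sets of SLC39A8 showed this course, with HH38 minus HH16 changes of -2.67, -2.44 and -3.47.

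A mitochondrial iron carrier rose at HH11. SLC25A37 (mitoferrin 1), which brings iron into the mitochondria of red cell precursors for haem, gave 2657 and 2833 at HH11, against 609 and 836 at HH9 (log2 change 1.94 ± 0.145, adjusted p = 5.71e-09). It reached 3945 and 3641 at HH16, against 333 and 379.8 at HH1 (log2 change 3.41 ± 0.145, adjusted p = 1.1e-14), averaged 1797 at HH19 and gave 1517 and 1471 at HH38 (log2 change -1.34 ± 0.145, adjusted p = 8.01e-08; HH34 arrays 1123 and 1211). A second probe set shared the rise at HH11 (415, against 105 at HH9) but stood at 904.5 at HH1, so that its HH16 and HH1 levels did not differ by the test (log2 change -0.48, adjusted p = 0.0638).

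The 3 globin genes measured of 5 red cell markers summed to 84950 and 98330 at HH11, against 24030 and 26610 at HH9, and to 44 and 780 at HH1. SLC25A37 was highest at HH16 (globin sums 121400 and 109100) and stood at 1720 at HH24 (globin sums 143100 and 105500). Their part in its rise was not tested. SLC25A28, the mitoferrin of other cells, stayed between 530.2 (HH38) and 777 (HH2), 1 of the 8 smallest spans among SLC genes above background on all arrays.

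Of the haem and iron carriers described here, SLC48A1 and SLC40A1 rose at HH38 against HH16 while SLC25A37 fell, as given above. SLC48A1 (HRG1), which takes haem out of lysosomes, gave 3211 and 3086 at HH38, against 1360 and 1208 at HH16 (log2 change 1.30 ± 0.113, adjusted p = 2.74e-09), with 1694 at HH34. SLC40A1 (ferroportin), the iron exporter of macrophages and gut, gave 202 and 239 at HH38, against 50.03 and 77.2 at HH16 (log2 change 1.82 ± 0.337, adjusted p = 0.000119; HH34 arrays 115 and 139.8), and had an earlier high of 187 at HH9. Summed leukocyte markers (3 of 3 measured) were 10500 and 10650 at HH38 and 4442 and 4548 at HH34, against 864 and 979 at HH16, and their part was not tested.

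SLC41A2, a magnesium carrier, rose in both main contrasts. It gave 369 and 387 at HH16, against 120.2 and 104 at HH1 (log2 change 1.76 ± 0.143, adjusted p = 6.83e-10), and 1317 and 1353 at HH38, against HH16 (log2 change 1.82 ± 0.143, adjusted p = 5.8e-10; HH34 arrays 1561 and 1560). Its means were 511, 787, 1247, 1532 and 1560 from HH19 to HH34. With SLC13A3 and SLC9A9 it was 1 of 3 SLC genes (1.2%, against 3.99% of all genes) that rose in both, and at HH16 the SLC9A9 arrays were not both above background. The SLC9A9 call for HH16 against HH1 ended without any 1 of 14 arrays (adjusted p up to 0.187), and with 75th percentile scaling (adjusted p = 0.0544), array weights (adjusted p = 0.0621), quantile normalization (adjusted p = 0.0585), no filter on low signals (adjusted p = 0.0528) or no variance trend (adjusted p = 0.0547). The SLC13A3 call for HH16 against HH1 ended without HH1 replicate 1 (log2 change 0.82).

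The sodium-chloride cotransporters of the kidney tubule, SLC12A3 and SLC12A1, were high at successive stages. SLC12A3 (NCC) gave 945 and 1077 at HH2, against 303 and 468 at HH1 (log2 change 1.42 ± 0.338, adjusted p = 0.00262), had means of 706, 629.6, 498 and 297 from HH4 to HH9, and was at 50.2 and 58.4 at HH11 (log2 change -2.46 ± 0.338, adjusted p = 2.21e-05). The SLC12A3 call for HH2 against HH1 ended without HH1 replicate 1 (adjusted p = 0.0616), and with the mean of its probe sets (adjusted p = 0.0923). At HH16 it gave 32.1 and 35.1 (log2 change -3.49 ± 0.338, adjusted p = 1.15e-08, with 1 of 2 HH16 arrays above background).

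SLC12A1 (NKCC2) rose at the step at which SLC12A3 fell. It gave 956 and 869 at HH11, against 90.8 and 174 at HH9 (log2 change 2.86 ± 0.696, adjusted p = 0.00761). The SLC12A1 call for HH11 against HH9 ended without HH11 replicate 1 (adjusted p = 0.0562) or HH9 replicate 1 (adjusted p = 0.103). At HH16 it gave 649.6 and 778, against 38.2 and 3.68 at HH1 (log2 change 5.91 ± 0.696, adjusted p = 2.42e-07, with 1 of 2 HH1 arrays above background). It fell again to 160 and 149.7 at HH38 (log2 change -2.20 ± 0.696, adjusted p = 0.0144; HH34 arrays 303 and 296). The SLC12A1 call for HH38 against HH16 ended without HH16 replicate 2 (adjusted p = 0.0785), HH38 replicate 1 (adjusted p = 0.0546) or HH38 replicate 2 (adjusted p = 0.0659). Of its 4 other probe sets, 3 were kept, and all 3 had their highest mean at HH14, as did the one used. Of 4 kidney markers, PAX2 and UMOD were measured, with PAX2 at 522 at HH11, against 365 at HH9, and UMOD between 20.1 and 73.6 at every stage. Their part was not tested.

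**Figure D5:**
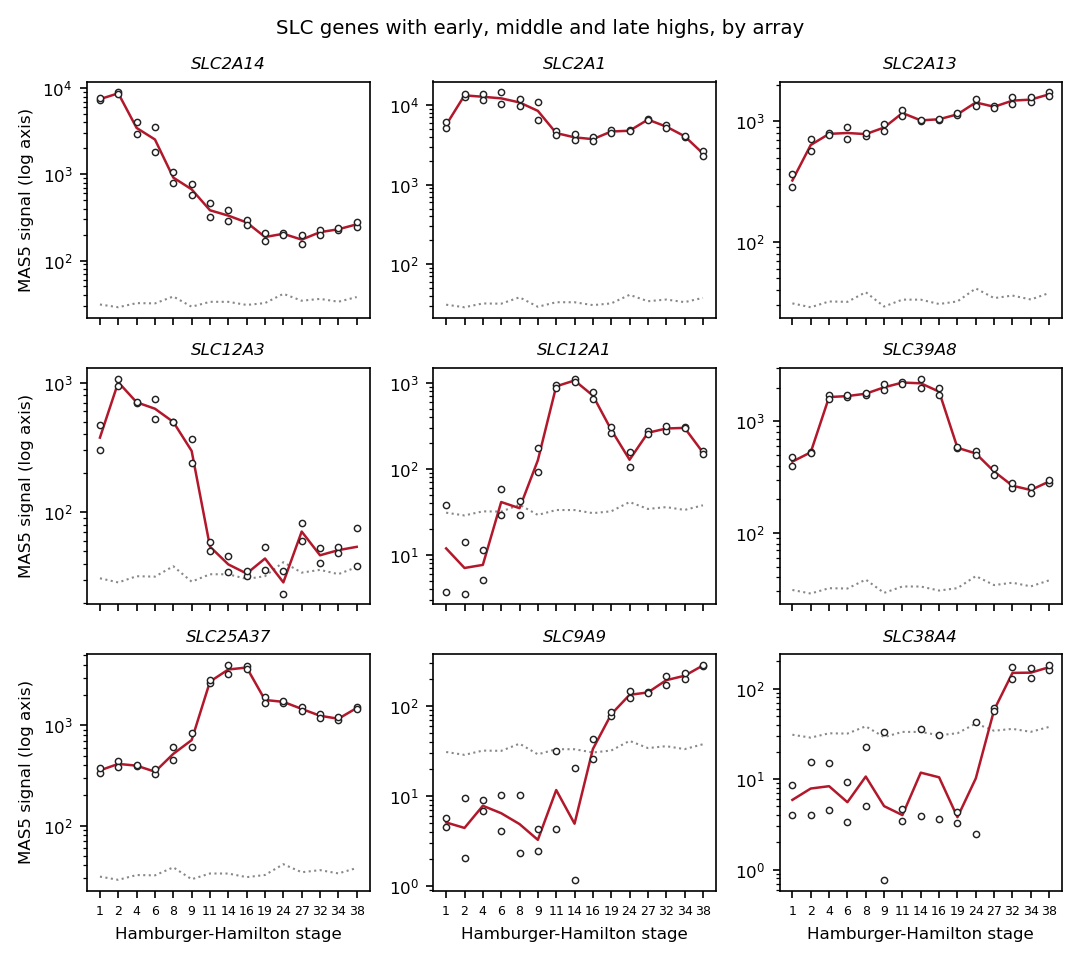
Signal on each array (open points) and stage mean (line) of 9 SLC genes over 15 stages, on log axes with the background as a dotted line. SLC2A14 drops between HH2 and HH9, SLC12A3 falls and SLC12A1 rises between HH9 and HH11, SLC39A8 ends its plateau at HH19, SLC25A37 peaks at HH16, and SLC9A9 and SLC38A4 leave background at HH19 and HH27.

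Of 39 tested genes in the ion exchange and cotransport list, 22 had a stage effect (56.4%, against 82.1% of all genes), 3 rose and 3 fell at HH16 against HH1 (7.69% and 7.69%, against 16.7% and 10.5% of all genes, median -0.09), and 4 rose and 2 fell at HH38 against HH16 (10.3% and 5.13%, against 14.5% and 8.92% of all genes, median 0.51, against 0.01 over all genes). At HH16 1 rose and 5 fell with 75th percentile scaling, 1 and 4 with quantile normalization, and 3 and 5 with the mean of probe sets, which gave 7 and 2 at HH38. SLC9A9, a sodium-proton exchanger of endosomes, gave 280.2 and 289.5 at HH38, against 25.9 and 43.0 at HH16 (log2 change 3.09 ± 1.07, adjusted p = 0.0239, with 1 of 2 HH16 arrays above background; HH34 arrays 203 and 236), and was above background on both arrays from HH19 on. The SLC9A9 call for HH38 against HH16 ended without HH16 replicate 1 (adjusted p = 0.132), HH16 replicate 2 (adjusted p = 0.0521), HH38 replicate 1 (adjusted p = 0.0856) or HH38 replicate 2 (adjusted p = 0.0905). SLC24A2, a sodium-calcium-potassium exchanger of cones and brain, gave 303 and 389 at HH38, against 95.5 and 64.7 at HH16 (log2 change 2.13 ± 0.362, adjusted p = 4.59e-05), and 332 and 331 at HH34.

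SLC24A5, the exchanger of pigment granules, gave 592 and 708 at HH16, against 332 and 294 at HH1 (log2 change 1.05 ± 0.213, adjusted p = 0.000292). The SLC24A5 call for HH16 against HH1 ended without HH1 replicate 2 (log2 change 0.96) or HH16 replicate 2 (log2 change 0.92), and with 75th percentile scaling (log2 change 0.89) or quantile normalization (log2 change 0.87). Its highest mean, 767, came at HH19 and it was at 489 at HH38, while the 4 pigment cell markers summed to 11570 and 12350 at HH38, against 472 and 663 at HH19. This course is that of the probe set used, which was not called at HH38 against HH16. The other kept probe set of SLC24A5 was called higher in that contrast, and so was the mean of both. SLC13A3 made its second rise in this period, to 1427 and 1852 at HH38, against 276 and 280.1 at HH16 (log2 change 2.55 ± 0.198, adjusted p = 4.79e-10; HH34 arrays 1714 and 1573), with the step to HH27 (log2 change 1.14 ± 0.198, adjusted p = 0.00208) called. SLC4 and SLC26, families that include anion exchangers, had 9 and 8 genes tested. In the main contrasts they had 1 call between them (SLC4A8, lower at HH38, with the HH16 arrays not both above background). Over all genes 16.7% rose and 10.5% fell at HH16 against HH1, and 14.5% and 8.92% at HH38 against HH16. Elsewhere SLC4A2 and SLC26A4 were called higher at HH2, SLC26A4 lower at HH11, and SLC4A10 and SLC26A6 higher at HH34 against HH16.

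Neurotransmitter carriers clear transmitters from synapses or load them into vesicles. In that list, 10 of 13 tested genes had a stage effect (76.9%, against 82.1% of all genes). At HH16 against HH1 3 rose and 0 fell by limma (23.1% and 0%, against 16.7% and 10.5% of all genes, 4 and 0 at an unadjusted p under 0.05, median 0.64), and at HH38 against HH16 2 rose and 0 fell (15.4% and 0%, against 14.5% and 8.92% of all genes, 2 and 1 unadjusted, median 0.32). Under the other scalings 1 rose at HH16, and 2 rose and 1 fell at HH38. The vesicular acetylcholine carrier SLC18A3 gave 399 and 432 at HH19, against 149 and 184 at HH16 (log2 change 1.33 ± 0.316, adjusted p = 0.0259). The SLC18A3 call for HH19 against HH16 ended without HH16 replicate 1 (adjusted p = 0.216), HH16 replicate 2 (adjusted p = 0.0838), HH19 replicate 1 (adjusted p = 0.108) or HH19 replicate 2 (adjusted p = 0.153), and with no variance trend (adjusted p = 0.058). Its means were 537, 374, 446, 391 and 220.2 from HH24 to HH38.

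SLC32A1 rose a second time, to 362 and 346 at HH24, against 163 and 175 at HH19 (log2 change 1.07 ± 0.206, adjusted p = 0.00593), and 668 and 786 at HH38, against 144 and 99.2 at HH16 (log2 change 2.60 ± 0.206, adjusted p = 6.51e-10; HH34 arrays 744 and 862). The SLC32A1 call for HH24 against HH19 ended without HH19 replicate 1 (adjusted p = 0.0525), and with quantile normalization (log2 change 0.97). SLC1A6 (EAAT4), a glutamate carrier of Purkinje cells, gave 190 and 234 at HH38, against 80.3 and 70.3 at HH16 (log2 change 1.49 ± 0.418, adjusted p = 0.00629; HH34 arrays 167 and 173). The SLC1A6 call for HH38 against HH16 ended without HH38 replicate 2 (adjusted p = 0.0568). SLC18A2 (VMAT2), the vesicular monoamine carrier, was instead high from HH4 to HH9, with 432 and 191 at HH9, and gave 146 and 161 at HH16, against 41.6 and 21.8 at HH1 (log2 change 2.35 ± 0.373, adjusted p = 1.57e-05, with 1 of 2 HH1 arrays above background).

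All 6 neuron markers were measured and their sum was 13960 and 12190 at HH19, against 4928 and 4702 at HH16, with 15520 and 19280 at HH38. STMN2 averaged 3526 at HH19, against 662 at HH16, and GAP43 was above background on 4 of 30 arrays. At HH6, where SLC32A1 had its first high, the neuron markers summed to 1233 and 1224. Their part in the changes of SLC18A3, SLC32A1 and SLC1A6 was not tested.

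Monocarboxylate carriers move lactate, pyruvate and ketone bodies. They were counted in 1 list with thyroid hormone carriers, which also holds SLC5A5 and SLC26A4. In that list, 11 of 15 tested genes had a stage effect (73.3%, against 82.1% of all genes) and 3 rose and 1 fell at HH16 against HH1 (20% and 6.67%, against 16.7% and 10.5% of all genes, median 0.49). At HH38 against HH16 1 rose and 5 fell (6.67% and 33.3%, against 14.5% and 8.92% of all genes, median -0.21), and 5 fell under both other scalings as well, with no rise under quantile normalization. These falls rested on the probe sets used: with the mean of probe sets only SLC16A3 fell, and SLC16A1, SLC16A6, SLC16A12 and SLC5A12 were not called. SLC5A12 was not above background on both arrays at HH16, its brighter stage. SLC16A1 (MCT1), the main lactate and pyruvate carrier, gave 1566 and 1917 at HH38, against 3436 and 3695 at HH16 (log2 change -1.04 ± 0.142, adjusted p = 2.6e-06; HH34 arrays 2122 and 2325), after a high of 6605 at HH6. The SLC16A1 call for HH38 against HH16 ended without HH16 replicate 2 (log2 change -0.99) or HH38 replicate 1 (log2 change -0.89), and with the mean of its probe sets (log2 change -0.80). SLC16A3 (MCT4), which exports lactate from glycolytic cells, gave 1151 and 1198 at HH2, against 325 and 335 at HH1 (log2 change 1.83 ± 0.164, adjusted p = 1.94e-08), then lay between 732 and 1258 until HH34, and gave 435 and 347 at HH38 (log2 change -1.01 ± 0.164, adjusted p = 2.43e-05; HH34 arrays 688 and 837). The SLC16A3 call for HH38 against HH16 ended without HH38 replicate 2 (log2 change -0.85).

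SLC16A12 fell to 319 and 318 at HH38, against 793 and 828 at HH16 (log2 change -1.35 ± 0.152, adjusted p = 1.63e-07), with stage means between 279 and 366 from HH24 on. The SLC16A12 call for HH38 against HH16 ended with the mean of its probe sets (log2 change -0.98). SLC16A8 (MCT3), the lactate carrier of retinal pigment epithelium, was the one riser. It gave 81.4 and 62.6 at HH38 and 132 and 122 at HH34, against 15.1 and 1.61 at HH16 (for HH38 at least 2.35-fold, adjusted p = 0.0365, with both HH16 arrays not well above background). The SLC16A8 call for HH38 against HH16 ended without HH16 replicate 2 (adjusted p = 0.353), HH38 replicate 1 (adjusted p = 0.136) or HH38 replicate 2 (adjusted p = 0.0965), and with quantile normalization (adjusted p = 0.0567). SLC16A14, an orphan of the family, was lower at HH2 (43.7 and 78.7) than at HH1 (155 and 208, log2 change -1.61 ± 0.396, adjusted p = 0.00341) and highest at HH19 (240.1). The SLC16A14 call for HH2 against HH1 ended without HH2 replicate 1 (adjusted p = 0.0758), and with the mean of its probe sets (adjusted p = 0.0637).

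Nucleoside and vitamin carriers had no rise in the main contrasts. In that list, 12 of 15 tested genes had a stage effect (80%, against 82.1% of all genes), 0 rose and 5 fell at HH16 against HH1 by limma (0% and 33.3%, against 16.7% and 10.5% of all genes, 0 and 5 at an unadjusted p under 0.05, median -0.49). At HH38 against HH16 limma made 0 calls (against 14.5% of all genes higher and 8.92% lower, with 3 higher and 3 lower at an unadjusted p under 0.05, median 0.36), and 1 fell with either other scaling. SLC28A3 (CNT3), the broad nucleoside carrier, gave 41.0 and 22.9 at HH16, against 524 and 497 at HH1 (log2 change -4.06 ± 0.439, adjusted p = 6.43e-08, with 1 of 2 HH16 arrays above background), through falls at HH4 (log2 change -1.26 ± 0.439, adjusted p = 0.0465) and HH11 (log2 change -2.58 ± 0.439, adjusted p = 0.000262). The SLC28A3 call for HH4 against HH2 ended without any 1 of 12 arrays (adjusted p up to 0.221), and with array weights (adjusted p = 0.061), quantile normalization (adjusted p = 0.0606), the replicate block (adjusted p = 0.0506), no filter on low signals (adjusted p = 0.0594) or no variance trend (adjusted p = 0.059). SLC23A2 (SVCT2), the vitamin C carrier of most tissues, gave 527 and 544 at HH4, against 1477 and 1455 at HH2 (log2 change -1.45 ± 0.136, adjusted p = 3.58e-08), and recovered to 1181 at HH32.

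SLC23A1, the epithelial vitamin C carrier, had its high of 209.6 at HH8, when SLC23A2 averaged 663. SLC19A1, the reduced folate carrier, gave 1833 and 1702 at HH16, against 4256 and 4119 at HH1 (log2 change -1.25 ± 0.105, adjusted p = 1.21e-09). SLC19A3, a thiamine carrier, had its highest mean at HH8 (139.9). SLC29A1 and SLC29A4, nucleoside facilitators, completed the 5 falls (log2 change -1.23 ± 0.171, adjusted p = 2.73e-06 for SLC29A1 and log2 change -1.82 ± 0.329, adjusted p = 8.13e-05 for SLC29A4). The SLC29A1 call for HH16 against HH1 ended without HH1 replicate 2 (log2 change -0.97).

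Most mitochondrial carriers changed by less than 2-fold in the main contrasts. Of 32 tested SLC25 genes, 27 had a stage effect (84.4%, against 82.1% of all genes), 3 rose and 1 fell at HH16 against HH1 (9.38% and 3.12%, against 16.7% and 10.5% of all genes, median -0.00), and 1 rose and 3 fell at HH38 against HH16 (3.12% and 9.38%, against 14.5% and 8.92% of all genes, median -0.15). At HH38 6 fell under either other scaling and 5 with the mean of probe sets. SLC25A6, an ADP/ATP exchanger, had the smallest span of all SLC genes above background on every array, with stage means from 28980 (HH34) to 36870 (HH8) and no stage effect (adjusted p = 0.0572). The other members of the 8 smallest spans were SLC30A4, SLC4A9, SLC35A1, SLC35B2, SLC25A28, SLC25A46 and SLC39A3. SLC25A3, the phosphate carrier, had means of 25710 at HH1, 21410 at HH16 and 13350 at HH38.

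SLC25A4 and SLC25A5, the other ADP/ATP exchangers, had highs of 8898 at HH4 and 15290 at HH6. SLC25A20, the acylcarnitine carrier for fatty acid oxidation, was highest at HH9 (6516, against 2760 at HH1). Of the 27 SLC25 genes with a stage effect, 11 had their highest mean from HH4 to HH9. Those stages held the highest mean of 29% of SLC genes and 16.2% of all genes with a stage effect. The aspartate-glutamate carriers SLC25A13 and SLC25A12 ran in opposite courses: at HH9 and HH32, SLC25A13 averaged 9511 and 2801 and SLC25A12 301 and 1323.

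SLC25A29, a carrier of basic amino acids, gave 1419 and 1463 at HH38, against 510 and 568 at HH16 (log2 change 1.42 ± 0.162, adjusted p = 1.89e-07; HH34 arrays 1182 and 1088), on a climb from 166 at HH2. SLC25A39, which brings glutathione into mitochondria, gave 213 and 237 at HH38, against 659.8 and 740.4 at HH16 (log2 change -1.64 ± 0.133, adjusted p = 1.01e-09; HH34 arrays 383 and 331), and was already at 420.3 at HH24. SLC25A48, a mitochondrial choline carrier in mammals, gave 192 and 176 at HH11, against 69.0 and 98.3 at HH9 (log2 change 1.16 ± 0.354, adjusted p = 0.0335). The SLC25A48 call for HH11 against HH9 ended without HH11 replicate 1 (adjusted p = 0.165), HH11 replicate 2 (adjusted p = 0.113) or HH9 replicate 1 (adjusted p = 0.258).

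The nucleotide sugar list took the SLC35 family whole, also members whose cargo is not settled, so its counts describe the family and not nucleotide sugar transport. Its 21 tested genes, of which 18 had a stage effect (85.7%, against 82.1% of all genes), had 1 rise and 4 falls at HH16 against HH1 (4.76% and 19%, against 16.7% and 10.5% of all genes, median -0.37). They had 0 limma calls at HH38 against HH16 (against 14.5% of all genes higher and 8.92% lower, with 3 higher and 8 lower at an unadjusted p under 0.05), and 1 fall with quantile normalization. Of the 18 with a stage effect, 10 had their highest mean at HH1 or HH2. Those stages held the highest mean of 31.7% of SLC genes and 32.7% of all genes with a stage effect. The 10 included SLC35E3, whose substrate is not settled, with 2711 and 3026 at HH16, against 12430 and 13140 at HH1 (log2 change -2.16 ± 0.134, adjusted p = 7.38e-12). SLC35G2 was the one riser, at 1271 and 1317, against 419 and 556 (log2 change 1.42 ± 0.112, adjusted p = 3.69e-10). SLC35G1 was highest at HH1, with 53.7 and 75.9 at HH2, against 316 and 306 at HH1 (log2 change -2.28 ± 0.821, adjusted p = 0.0413). The SLC35G1 call for HH2 against HH1 ended without HH1 replicate 1 (adjusted p = 0.146), HH1 replicate 2 (adjusted p = 0.115), HH2 replicate 1 (adjusted p = 0.181) or HH2 replicate 2 (adjusted p = 0.0861), and with array weights (adjusted p = 0.0612), quantile normalization (adjusted p = 0.0678), no filter on low signals (adjusted p = 0.0535) or no variance trend (adjusted p = 0.0578).

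Among organic ion, choline and fatty acid carriers, 15 of 19 tested genes had a stage effect (78.9%, against 82.1% of all genes), 2 rose and 3 fell at HH16 against HH1 (10.5% and 15.8%, against 16.7% and 10.5% of all genes, median 0.35), and 2 rose and 1 fell at HH38 against HH16 (10.5% and 5.26%, against 14.5% and 8.92% of all genes, median 0.46), or 4 and 0 with the mean of probe sets. One of the rises at HH16, SLC27A1, was not above background on both arrays at that stage, its brighter one. That SLC27A1 call ended without any 1 of 2 arrays. SLC44A5, of the choline carrier family, gave 789 and 696 at HH16, against 169 and 161 at HH1 (log2 change 2.17 ± 0.156, adjusted p = 8.82e-11). SLC44A3, its relative, was higher at HH38 (544 and 574) than at HH16 (243 and 268, log2 change 1.13 ± 0.189, adjusted p = 3.55e-05; HH34 arrays 268 and 299.9). The SLC44A3 call for HH38 against HH16 ended with 75th percentile scaling (log2 change 0.97) or quantile normalization (log2 change 0.96). SLC47A1 (MATE1), which expels organic cations into bile and urine, gave 752 and 942 at HH2, against 356 and 334 at HH1 (log2 change 1.29 ± 0.177, adjusted p = 6.87e-06), and 162 and 207 at HH38, against 362 and 437 at HH34 (log2 change -1.12 ± 0.177, adjusted p = 0.000141). The SLC47A1 call for HH2 against HH1 ended with the mean of its probe sets (log2 change 0.84). The SLC47A1 call for HH38 against HH34 ended without HH34 replicate 2 (log2 change -0.99) or HH38 replicate 1 (log2 change -0.95), and with the mean of its probe sets (log2 change -0.83). At HH16 it gave 342 and 405, and HH38 was lower than that too (log2 change -1.03 ± 0.177, adjusted p = 5.41e-05). The SLC47A1 call for HH38 against HH16 ended without HH16 replicate 2 (log2 change -0.90) or HH38 replicate 1 (log2 change -0.85), and with the mean of its probe sets (log2 change -0.96).

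Several further genes of the metal and amino acid lists also changed. SLC31A2 (CTR2), a copper carrier of inner membranes, gave 20.3 and 39.7 at HH16, against 211 and 227 at HH1 (log2 change -2.95 ± 0.759, adjusted p = 0.00279, with 1 of 2 HH16 arrays above background). SLC38A9, the amino acid sensor of lysosomes, gave 222 and 234 at HH2, against 99.7 and 84.0 at HH1 (log2 change 1.31 ± 0.229, adjusted p = 0.000121). SLC7A2, a carrier of basic amino acids, gave 72.3 and 84.8, against 283 and 298 (log2 change -1.89 ± 0.273, adjusted p = 1.27e-05), and SLC30A9, of the zinc exporter family, gave 134 and 192, against 508 and 399.6 (log2 change -1.49 ± 0.259, adjusted p = 0.000116), so that SLC38A9 was higher and SLC7A2 and SLC30A9 lower at HH2.

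Among vesicle carriers, SLC18B1, which takes up polyamines, gave 757 and 699 at HH38, against 1777 and 1784 at HH16 (log2 change -1.29 ± 0.101, adjusted p = 5.17e-10), with 857 and 843 at HH34. SLC17A9 (VNUT), which loads nucleotides, gave 236 and 249 at HH38, against 141 and 94.5 at HH34 (log2 change 1.07 ± 0.215, adjusted p = 0.00157). The SLC17A9 call for HH38 against HH34 ended without HH34 replicate 2 (adjusted p = 0.0537), and with the mean of its probe sets (adjusted p = 0.638).

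A called change from HH34 to HH38 was shown by a single probe set of its gene. SLC34A1, the phosphate carrier of the kidney, gave 87.2 and 75.5 at HH38, against 729.5 and 1098 at HH34 (log2 change -3.46 ± 0.417, adjusted p = 4.9e-06) and 318 and 517 at HH16. None of its 4 other probe sets passed the test in that contrast: their HH38 minus HH34 changes were -0.96, -1.22, -0.29 and 0.17, with adjusted p of 0.351 or more. One of them rose at HH38 against HH16 (log2 change 2.32, adjusted p = 0.0171), and with the mean of the probe sets the change against HH16 was 0.67. The SLC34A1 call for HH38 against HH34 ended with the mean of its probe sets (adjusted p = 0.0661). The W-linked genes HINTW and HNRNPKL were not well above background at that same stage, and their part in this change was not tested.

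Relatives moved apart in some families. At HH16 against HH1, 29 pairs of SLC genes of the same family were called in opposite directions, and at HH38 against HH16, 11 pairs. Every combination of a rise and a fall in a family counts as a pair, so large families give more of them. No such count was made for other gene families, so these numbers do not show that SLC relatives part more often than other genes. In the first contrast SLC2A13 and SLC2A12 rose while SLC2A14 fell, SLC12A1 rose while SLC12A3 fell, SLC30A10 rose while SLC30A1 and SLC30A7 fell, and SLC25A48 and SLC25A37 rose while SLC25A25, an ATP-magnesium and phosphate exchanger, fell (131 at HH16, against 443 at HH1, log2 change -1.76 ± 0.217, adjusted p = 4.97e-07). In the second, by the probe sets used, SLC16A8 rose while SLC16A1, SLC16A3, SLC16A6, SLC16A10 and SLC16A12 fell, and SLC25A29 rose while SLC25A39 and SLC25A37 fell. These pairs are named by the calls given above and were not tested as pairs.

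Probe sets of 1 gene often differed in whether they called a change, and rarely in its direction. Of 146 SLC genes with more than 1 kept probe set, 63 had a call by at least 1 of them at HH16 against HH1, 13 had the same call by all, and 1 (SLC36A1) had calls in both directions. At HH38 against HH16 these numbers were 38, 4 and 1 (SLC34A1). The same counts were not made over all genes, so they do not show that SLC genes differ from other genes here. SLC36A1, a lysosomal and brush border carrier of small amino acids, fell by the probe set used (log2 change -1.39 ± 0.255, adjusted p = 9.48e-05) and rose by another (log2 change 2.31, adjusted p = 0.00723). The SLC36A1 call for HH16 against HH1 ended with the mean of its probe sets (adjusted p = 0.338).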

How the data were processed

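Total RNA from pooled whole chicken embryos at 15 stages, 2 pools a stage, was hybridised to 30 one-colour Affymetrix chicken arrays. The deposited values are linear MAS5 intensity signals that the authors computed per array, per the submitters' processing notes; its version was not given in the sources used here, and the deposited values were used without further background correction. Probe sets were named from the platform table, which gives 1 symbol for 27166 of 37693 chicken probe sets, more than 1 for 177 and no symbol for 10350; 262 of 266 SLC genes matched the RefSeq table by gene identifier, with 0 symbols changed. On every array the mean signal after trimming 2% at each end was 500.0, so the arrays had been scaled before deposit and were not scaled again; signals were taken to log2. Chicken probe sets at or above the 40th percentile of their array on at least 2 arrays were kept (29600). Python 3.11.15 and R 4.3.3 with limma 3.58.1 (lmFit, eBayes with a variance trend) fitted 15 stage means with 15 residual degrees of freedom, and p-values were adjusted by Benjamini-Hochberg over all kept probe sets within each contrast. A call needed an adjusted p under 0.05 and at least a 2-fold change. Where both arrays of the dimmer stage were not well above background, the fold is a lower bound.

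A stage mean is the geometric mean of its 2 arrays, and a change is log2 of the later over the earlier stage ± their standard error (SE, n = 2 each), and the number of arrays limits the precision. The labels call the pools biological replicates, so p-values measure the spread between pools. Genes with full statistics were the largest called changes per contrast with non-overlapping arrays and a signal above the median, the steps' calls, and the brightest and flattest genes; others are given as members of their role list. The SLC genes, role lists and markers were chosen with earlier results of these data known. The alternatives were 2 other scalings, no filter, a floor of 16, no variance trend, array weights, the mean of probe sets, the replicate block and leaving out each array. The fit was tested on simulated data before use.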

Additional observations from a re-analysis of the deposited data

How the results depend on the processing

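Leaving out 1 array at a time gave 181 to 193 SLC genes with a stage effect, 54 to 62 calls for HH16 against HH1, 33 to 45 for HH38 against HH16, 27 to 34 for HH2 against HH1, 19 to 31 for HH4 against HH2, 9 to 20 for HH11 against HH9, 5 to 8 for HH38 against HH34 and 15 to 30 for the other 10 steps together. The genes with their highest mean at HH1 or HH38 numbered 64, and 61 to 66 in these repeats. The 9 calls at HH11 came without HH9 replicate 1 and the 30 calls in the other steps without HH24 replicate 2; those steps had 12 calls without the variance trend. HH38 against HH34 had 4 calls with the mean of probe sets, and HH38 against HH16 then had 33 rises and 14 falls. Of the calls, 43 of 62 for HH16 against HH1, 21 of 43 for HH38 against HH16, 11 of 30 at HH2, 15 of 28 at HH4, 7 of 17 at HH11 and 2 of 7 for HH38 against HH34 held without any 1 array, and 41, 17, 9, 13, 6 and 1 held in all repeats. The change of SLC34A1 at HH38 against HH16 turned to 0.67 with the mean of probe sets, and the cause was not tested. Over the named genes, 3089 repeats kept the call, 102 lost it and 1 reversed its sign. Most of these repeats left out an array of a stage outside the contrast, so this count says little about how firm the calls are.

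Replicate numbers did not pair the arrays: over 105 pairs of stages, deviations of same-numbered arrays correlated between -0.0305 and 0.0444. With the replicate block, 184 SLC genes had a stage effect, and calls numbered 60, 43, 30, 28, 16 and 7 in the 6 contrasts above and 19 in the other steps. Without both HH38 arrays 183 SLC genes had a stage effect, and without both HH1 arrays 175. Those repeats, and HH34 against HH16, were added after seeing the data. Each stage rests on 2 arrays, 148 of 266 SLC genes were above background on all arrays, and a missing call does not show that a gene stayed level.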

Other observations

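Genes of the same pathways whose symbols do not match the SLC name rule were measured on the same arrays. Their list holds helpers such as sodium pump subunits, and also further carriers such as the SLCO family. Of 29 such genes 27 were tested and 25 had a stage effect (92.6%, against 82.1% of all genes), with 7 higher and 3 lower at HH16 against HH1 (25.9% and 11.1%, against 16.7% and 10.5% of all genes), and 6 higher and 1 lower at HH38 against HH16 (22.2% and 3.7%, against 14.5% and 8.92% of all genes). TF (transferrin), the iron-binding protein of plasma, averaged 6740 at HH4, against 337 at HH2, then 15740 at HH9 and 2972 at HH16. At HH38 it stood at 25440 (log2 change against HH16 3.10, adjusted p = 6.31e-14). TFRC, the transferrin receptor, was higher at HH16 (3253) than at HH1 (1066, log2 change 1.61, adjusted p = 3.13e-10).

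ATP1B1, a subunit of the sodium pump whose gradient drives many SLC carriers, had means of 6993, 7920, 8195, 7450, 5596 and 2997 from HH2 to HH11, and 3185 at HH1. FXYD6, a regulator of that pump, was higher at HH16 (1174) than at HH1 (60.5, log2 change 4.28, adjusted p = 1.39e-09), and averaged 4547 at HH38. BSG (basigin), which carries monocarboxylate transporters to the cell surface, stayed between 5755 at HH38 and 9830 at HH4. EMB (embigin), the other helper of these transporters in the list, was lower at HH16 (3133) than at HH1 (8089, log2 change -1.37, adjusted p = 4.92e-09). EMB averaged 1737 at HH38. SLCO2B1, an organic anion carrier of the SLCO family, was higher at HH38 (532) than at HH16 (26.9, log2 change 4.30, adjusted p = 2.26e-06).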
